A study of Mus musculus with 2 samples.

Results

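The olfactory receptor gene clusters of mouse chromosomes 2, 7 and 9 were examined in lists of regions called from chromatin immunoprecipitation sequencing of corneal epithelium. A region was counted when its midpoint lay between 85 and 90.3 Mb of chromosome 2, between 109.5 and 116 Mb of chromosome 7 or between 37.4 and 40.2 Mb of chromosome 9 in mm9 coordinates. These 3 intervals span 14.6 Mb. They held 55 of the 25592 regions of sample 1 and 156 of the 42619 regions of sample 2, 211 of 68211 in all. After overlapping regions were merged, 47 of the 20574 regions shared by both samples lay in them.

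Both samples form 1 group. The tissue was corneal epithelium of mice at postnatal day 7 that carried the K14 DN-Clim transgene, a Myc-tagged dominant-negative Clim driven by the keratin 14 promoter, which is active in basal epithelial cells. Each immunoprecipitate used 24 µg of chromatin and an antibody against the Myc tag. The labels do not state whether different animals went into each replicate, so their agreement could be technical. Libraries of input chromatin or of mice without the tag were not analysed here, so a level without the tagged protein cannot be given, and the depth behind each region is unknown.

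Olfactory receptors are G protein-coupled receptors of the nasal epithelium, and their genes form the largest gene family of the mouse, arranged in tandem arrays. A mature olfactory neuron expresses a single receptor gene, and the arrays are otherwise packed in repressive chromatin. Clim2, also named Ldb1, is a cofactor that joins LIM-domain transcription factors to one another. In olfactory neurons, Ldb1 together with the LIM-homeodomain factor Lhx2 is known to occupy enhancers within the receptor clusters. In corneal epithelium the receptors have no established role. Expression was not measured here, so whether the clusters were silent in these samples was not tested.

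The gene content of the clusters is described from gene order in the RefSeq table of GRCm38, a different build than that of the regions, so no region was assigned to a gene. The table holds 1110 protein-coding genes with an Olfr symbol, 287 of them on chromosome 2, 239 on chromosome 7 and 130 on chromosome 9. On chromosome 2, 222 coding Olfr genes follow each other between Lrrc55 and Ptprj with only 3 other coding genes among them, Fads2b, Pramel7 and Pramel6. On chromosome 7, a run of 126 begins after Rrm1 and ends before Fam160a2. It encloses 27 other coding genes, among them 5 beta-globin genes (Hbb) and 12 genes of the Trim family of ubiquitin ligases. A second run of 67 begins after Gm1966 and ends before Nlrp10, with 7 other coding genes inside. By the rule used to end a run, more than 15 other coding genes separate these runs. The chromosome 7 interval may thus hold sequence that is not receptor array, and where it would lie could not be checked. On chromosome 9, 95 coding Olfr genes lie between Panx3 and Zfp202, with 3 other coding genes. That the mm9 intervals enclose these runs could not be checked, and the names of the clusters rest on the intervals as given.

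Called regions were sparse in the clusters of all 3 chromosomes and in both samples. In sample 1 the clusters held 3.77 regions per Mb, against 10.6 per Mb over the rest of the same chromosomes. The density ratio was 0.356, with an exact (Clopper-Pearson) 95% interval of 0.268 to 0.464. In sample 2 the clusters held 10.7 regions per Mb against 16.7 per Mb, a ratio of 0.638 (0.541 to 0.748). The clusters were thus sparser than the rest in both lists, but less so in sample 2, and the intervals of the samples did not overlap. Shared regions, which need a call in both samples, numbered 3.22 per Mb against 8.44 per Mb, a ratio of 0.381 (0.280 to 0.508). These intervals cover counting error only and treat regions as independent. Over 429 windows of 1 Mb on the rest of these chromosomes, the variance of the shared count was 3.87 times its mean, so the intervals are too narrow.

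Each cluster was sparse on its own, and within a sample the intervals of the 3 clusters overlapped. On chromosome 2, 20 regions of sample 1 and 55 of sample 2 gave 3.77 and 10.4 regions per Mb. These were 0.349 (0.213 to 0.541) and 0.605 (0.455 to 0.790) times the density of the rest of the chromosome. On chromosome 7, 25 and 68 regions gave ratios of 0.392 (0.253 to 0.581) and 0.669 (0.518 to 0.852). On chromosome 9, 10 and 33 regions gave ratios of 0.318 (0.152 to 0.587) and 0.673 (0.462 to 0.948). In each cluster the sample 1 ratio was the lower one. For the shared regions, of which 19, 18 and 10 lay in the clusters of chromosomes 2, 7 and 9, the ratios were 0.421 (0.252 to 0.659), 0.348 (0.206 to 0.553) and 0.401 (0.192 to 0.740). Sequence directly beside the clusters was not sparse with both sides pooled. In flanks as long as each cluster on both sides together, sample 1 held 11.1, 13.7 and 14.5 regions per Mb on chromosomes 2, 7 and 9, and sample 2 held 18.4, 19.5 and 19.5. The flank before the chromosome 2 cluster alone held 8.87 and 15.1 in samples 1 and 2, below the 10.8 and 17.2 of the rest of that chromosome. The flank before the chromosome 9 cluster held 16.1 in sample 2, below 17.5, and against it the sample 2 ratio was 0.733 (0.453 to 1.18). All other single flanks lay above the rest of their chromosome in these lists.

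**Figure D1:**
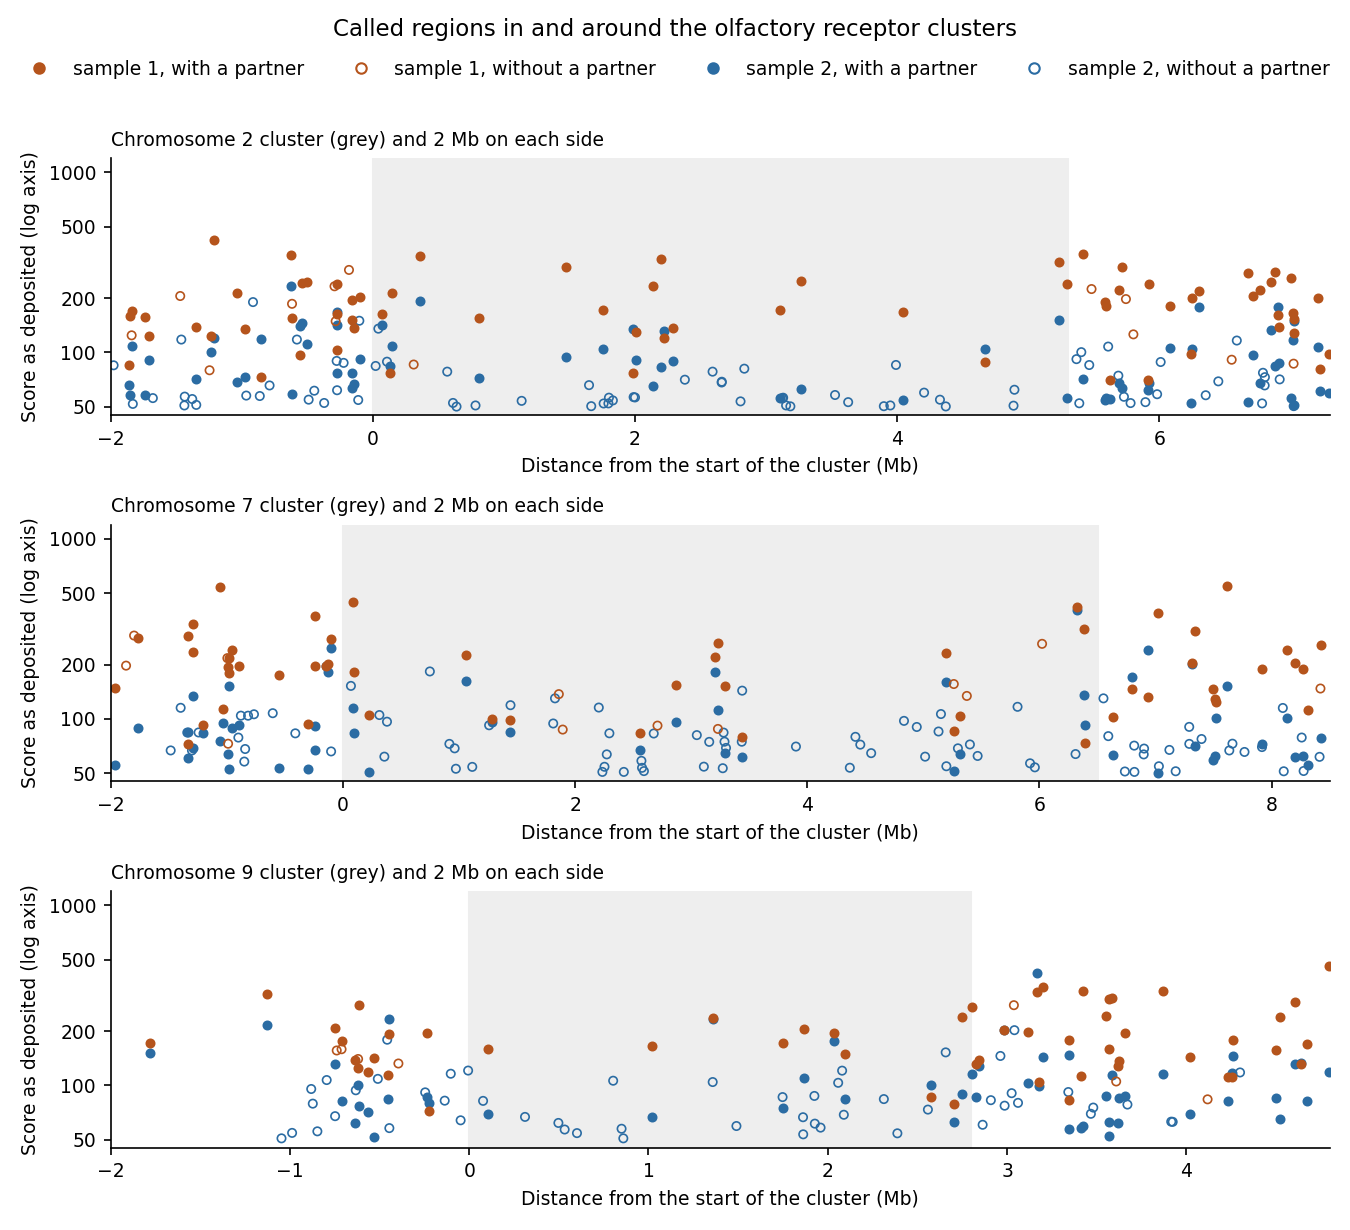
Score of every called region (log axis) against its distance from the start of the cluster, for each cluster (grey) with 2 Mb on each side, by sample and by presence of an overlapping region in the other sample. Inside the grey spans sample 1 has 20, 25 and 10 regions on chromosomes 2, 7 and 9, and 109 of the 156 sample 2 regions there are open circles.

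Fixed windows of 1 Mb showed the same at a finer scale. Of the 13 windows that lie wholly in a cluster, 13 fell below the median window of the rest of their chromosome in sample 1, 10 in sample 2 and 13 for shared regions. In sample 2, 2 windows lay above the median and 1 at it. The cluster windows held 0 to 8 regions in sample 1 (median 3) and 4 to 19 in sample 2 (median 11). Windows on the rest of the 3 chromosomes had medians of 10 and 15, with up to 36 and 51 regions. The poorest cluster window lay on chromosome 7 from 113000001 to 114000000, with 0 regions in sample 1 and 4 in sample 2. The richest lay directly before it, from 112000001 to 113000000, with 8 and 19 regions. On chromosome 2 the counts of both lists together fell between 18, from 85000001 to 86000000, and 9, from 89000001 to 90000000. The windows of chromosome 9 held 10, from 38000001 to 39000000, and 22, from 39000001 to 40000000. Sample 1 and shared counts were thus below the median in all 13 windows, while the sample 2 counts of 19 and 13 on chromosome 7, from 112000001 to 113000000 and from 114000001 to 115000000, and of 17 on chromosome 9, from 39000001 to 40000000, lay at or above the medians of 13 and 16 of these chromosomes.

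**Figure D2:**
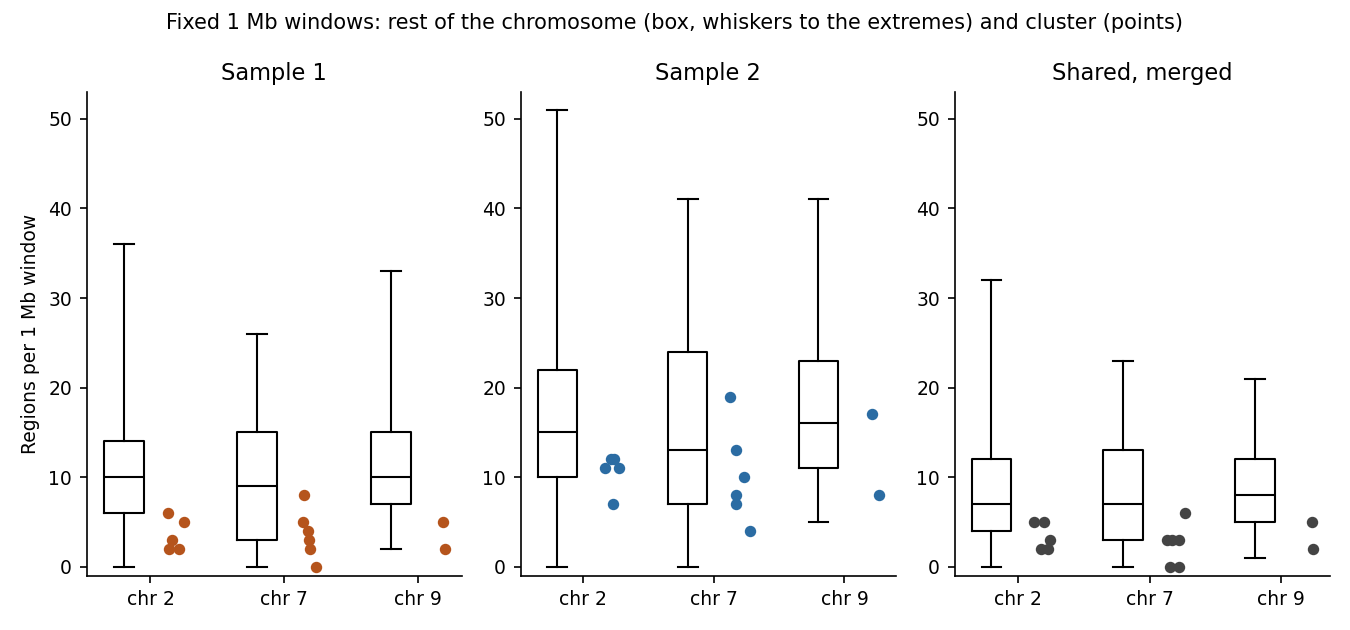
Regions per fixed 1 Mb window on chromosomes 2, 7 and 9 in sample 1, sample 2 and the shared set, with boxes for the rest of each chromosome (quartiles, whiskers to the extremes) and points for windows inside the cluster. The cluster points reach 8 in sample 1, 19 in sample 2 and 6 in the shared set, and none of the 13 shared counts reaches its chromosome's median.

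Other stretches of the same chromosomes can be as poor. Each chromosome was divided into stretches as long as its cluster, laid end to end from the cluster outwards. For shared regions, 1 of the other stretches of chromosome 2 held fewer than the cluster (33 stretches in all), 4 on chromosome 7 (22 in all) and 0 on chromosome 9 (42 in all). For sample 2 alone, 6, 6 and 8 other stretches held fewer. The median stretch elsewhere held 39, 60 and 22 shared regions on chromosomes 2, 7 and 9, where the clusters held 19, 18 and 10. Among the stretches laid this way, the chromosome 9 cluster had the lowest shared count of its chromosome, 10 against 13 in the next. This was not so for the other clusters. Stretches placed otherwise were not counted.

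The lists differed in what they held in the clusters. Sample 2 had 2.84 regions there for each region of sample 1 (exact 95% interval 2.07 to 3.93), against 1.58 (1.52 to 1.64) on the rest of the same chromosomes. Each shared region in the clusters joined 1 region of each list, so the larger sample 2 count lay in unpartnered regions by construction. Sample 2 regions with a partner in sample 1 had a density ratio of 0.380 (0.279 to 0.507), close to that of the shared set by construction. Those without a partner, 109 regions, had a ratio of 0.901 (0.738 to 1.09), so their density did not differ from that of the rest of the chromosomes beyond counting error. By cluster the ratio of these unpartnered regions was 0.789 (0.551 to 1.10) on chromosome 2, 1.00 (0.741 to 1.33) on chromosome 7 and 0.957 (0.604 to 1.44) on chromosome 9. In sample 1, the 8 regions without a partner were themselves sparse, with a ratio of 0.255 (0.110 to 0.504).

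Score and width separated the sample 2 regions further. The deposited score comes from the peak caller without a stated unit. It was used within a list only, except where the lowest score of sample 1 is applied to sample 2. In the lowest quartile of sample 2 scores the density ratio was 0.929 (0.697 to 1.21). It was 0.665 (0.474 to 0.909) in the second quartile, 0.594 (0.417 to 0.821) in the third and 0.382 (0.244 to 0.570) in the highest. The highest quartile of sample 2 thus came close to the 0.356 of sample 1. Sample 2 regions at or above 70.03, the lowest score of sample 1, had a ratio of 0.496 (0.392 to 0.621), whose interval overlaps that of sample 1. Those below it had a ratio of 0.893 (0.703 to 1.12). In 41 of the 47 overlapping pairs in the clusters, and 3106 of 3678 outside, the sample 1 region scored higher. The same score is thus a stricter limit in sample 2, and the lists are not compared like for like at 70.03. Across its score quartiles sample 1 showed no such order as sample 2. Its ratios were 0.472, 0.312, 0.235 and 0.402 from the lowest to the highest quartile, with overlapping intervals. Regions under 105 bp in sample 1 and under 100 bp in sample 2 were called narrow and all others wide. In sample 2 the narrow regions had a ratio of 0.451 (0.337 to 0.591) and the wide ones 0.811 (0.660 to 0.986). In sample 1 the ratios were 0.302 (0.202 to 0.435) and 0.443 (0.289 to 0.651).

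The wide sample 2 regions without a partner were the only class among those plotted with a ratio above 1. They numbered 79, or 5.41 per Mb, against 4.31 per Mb elsewhere on these chromosomes, a ratio of 1.26 with an interval of 0.990 to 1.57 that reaches 1. The value was 1.27 on chromosome 2, 1.22 on chromosome 7 and 1.41 on chromosome 9, and each of these intervals also reached 1. The 30 narrow sample 2 regions without a partner had a ratio of 0.516 (0.347 to 0.740). Width classes and score quartiles were examined with the data in view, so the differences between classes are descriptions.

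**Figure D3:**
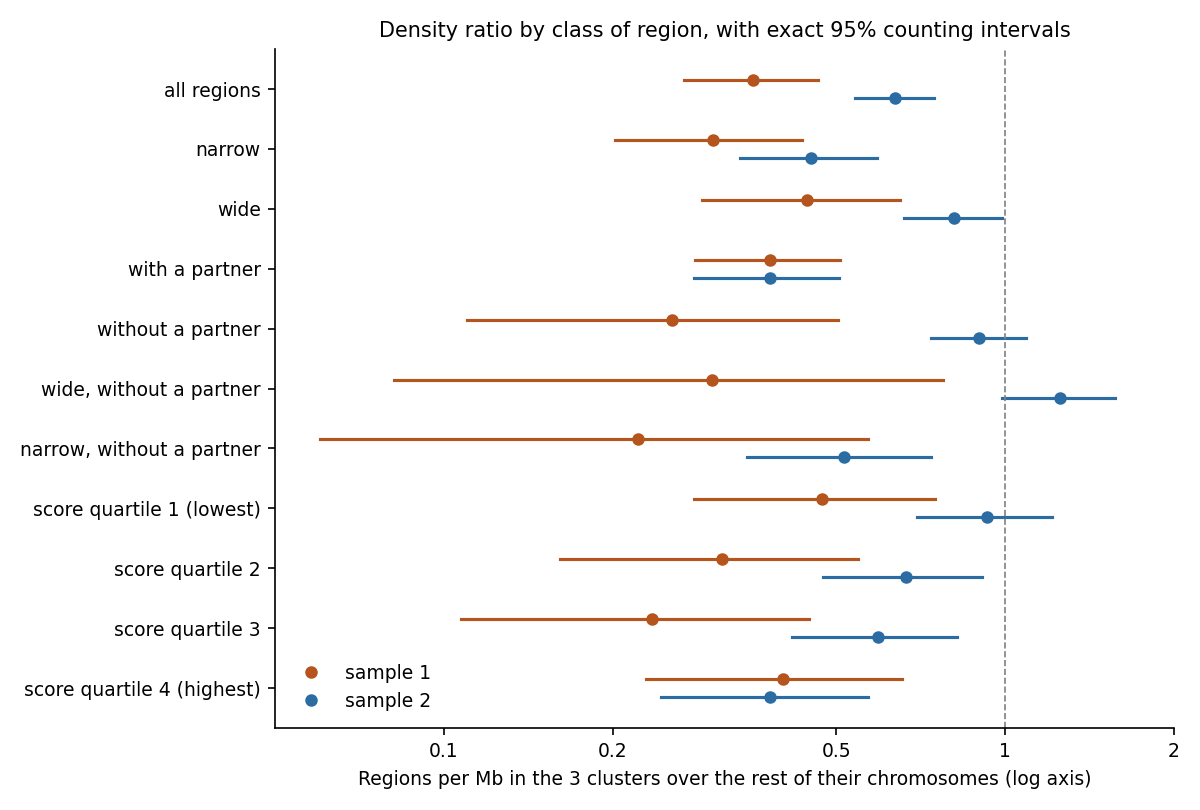
Density of regions in the 3 clusters divided by that of the rest of their chromosomes (log axis) by class of region, with points for the ratio and lines for exact 95% counting intervals in sample 1 and sample 2. Sample 1 lies below 1 in each class shown, while sample 2 moves from 0.382 in its highest score quartile to 0.929 in its lowest and 1.26 for wide regions without a partner.

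The median score in the clusters was below that outside in both samples, by more in sample 2 and within counting error in sample 1. The 156 sample 2 regions ranged from 50.07 to 400.59 with a median of 69.65, against a median of 83.23 over the rest of the 3 chromosomes. Their median lay at the 36.1 percentile of the sample 2 list. The 47 with a partner had a median at the 59.0 percentile, against 62.9 for regions with a partner outside, so the low median came with the unpartnered ones, at 28.9 against 38.7 outside. Of all 156 sample 2 regions in the clusters, 55 (35.3%) were in the lowest and 24 (15.4%) in the highest quartile of the list. Of the same 156, 78 scored below 70.03. The 55 sample 1 regions ranged from 73.75 to 447.49 with a median of 159.05, against 168.91 on the rest of the chromosomes. Their median lay at the 45.1 percentile, with a 95% interval of 30.1 to 64.6 that includes the 50.5 outside. In sample 1, 18 regions (32.7%, against 24.7% outside) were in the lowest quartile of the list. The highest quartile held 16 (29.1%, against 25.8% outside). Median percentiles of single clusters carry no interval, so differences between the clusters were not tested. In sample 2 the median percentile was 25.6 on chromosome 2, 41.6 on chromosome 7 and 40.4 on chromosome 9, and in sample 1 it was 51.8, 31.8 and 51.3. The lowest median thus fell on chromosome 2 in one list and on chromosome 7 in the other, so no cluster was the weakest in both.

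The median region in the clusters was wider than outside. Its width was 127.5 bp in sample 2 (interquartile range 78 to 153.25 bp) against 104 bp on the rest of the chromosomes, and 95 bp in sample 1 (76 to 146 bp) against 83 bp. Narrow regions made up 34.0% (exact 95% interval 26.6 to 42.0%) of the sample 2 regions in the clusters and 48.1% of those outside. In sample 1 they made up 52.7% (38.8 to 66.3%), an interval that includes the 62.0% outside. All widths in the clusters lay between 55 and 282 bp. Together the regions covered 6.214 kb in sample 1 and 19.28 kb in sample 2. In both samples wide regions scored lower than narrow ones inside the clusters as outside. The medians of wide and narrow regions were 95.315 and 205.74 in sample 1 and 62.49 and 94.6 in sample 2.

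**Figure D4:**
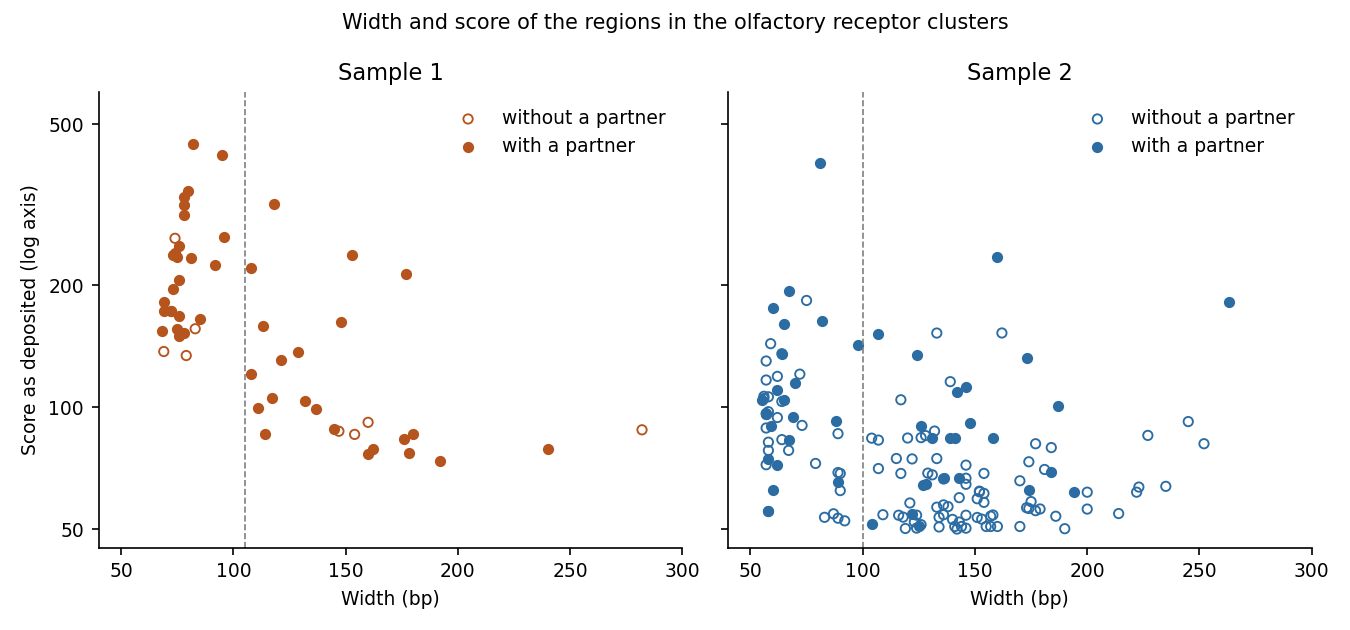
Score (log axis) against width for the 55 sample 1 regions and the 156 sample 2 regions in the clusters, filled where the other sample has an overlapping region, with the limit between narrow and wide regions dashed. Open circles right of the limit number 79 of 156 in sample 2 and 4 of 55 in sample 1, and 4 of the 79 score above 100. On the rest of the 3 chromosomes this class held 1872 of 7279 regions in sample 2 and 396 of 4603 in sample 1.

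Sharing between the replicates was uneven in direction. Of the sample 1 regions in the clusters, 47 of 55 had a sample 2 partner, an overlap of 1 bp or more (85.5%, exact 95% interval 73.3 to 93.5%), against 79.7% on the rest of the chromosomes. The value outside lies within this interval. Of the sample 2 regions, 47 of 156 overlapped a sample 1 region (30.1%, 23.05 to 38.0%), against 50.5% outside, which lies above the interval. The chromosome 9 cluster had a partner for 10 of its 10 sample 1 regions, chromosome 2 for 19 of 20 and chromosome 7 for 18 of 25. In sample 2 these were 10 of 33, 19 of 55 and 18 of 68. The low share in sample 2 thus occurred in each cluster, and 7 of the 8 unpartnered sample 1 regions lay on chromosome 7.

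The low scores of the sample 2 regions moved with part of the low share. With the regions outside weighted to the score deciles of those in the clusters, their share was 45.1% in place of 50.5%. Weighted to the width classes alone it was 50.5%, since outside the clusters wide and narrow regions were shared alike, and with deciles and width classes together it was 44.8%. All 3 values lie above the interval of the 30.1% in the clusters. Among wide sample 2 regions, 24 of 103 were shared (23.3%, 15.5 to 32.7%), against 50.5% of the wide regions outside. Among narrow ones, 23 of 53 were shared (43.4%, 29.8 to 57.7%), an interval that includes the 50.6% outside. Of the 78 sample 2 regions at or above the lowest score of sample 1, 33 were shared (42.3%, 31.2 to 54.0%), against 59.8% outside. A low share in sample 2 is also found in other poor windows. The 1099 autosomal windows of 1 Mb outside the clusters that held at most 6 shared regions, the highest count of a cluster window, had 2.23 sample 2 regions for each sample 1 region, and shared regions came to 34.0% of their sample 2 count. The 13 cluster windows had values of 2.96 and 28.1%. Choosing windows by a low shared count itself lowers that percentage, so these values are side by side as a description, and the part of local density in the low share was not tested.

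The strongest shared regions are named here, ranked on the average of their sample 1 and sample 2 score percentiles. On chromosome 7 the first lay from 115826107 to 115826201, with scores of 418.87 in sample 1 and 400.59 in sample 2. It ranked 68 among all shared regions of the genome, and its width was 95 bp. The second, from 115881551 to 115881629, scored 316.53 and 135.15. The third, from 109587117 to 109587203, had the highest sample 1 score of any region in the clusters, 447.49, and a sample 2 score of 115. These 3 lay 173.8, 118.4 and 87.2 kb from the nearer bound of the interval. The remaining named regions of chromosome 7 lay farther from the bounds of the interval, from 114697413 to 114697496 (scores 233.16 and 160.38) and from 112709259 to 112709521 (220.45 and 181.84).

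On chromosome 2 the first shared region lay from 85359258 to 85359339, with scores of 342.80 and 193.74. The second, from 90235264 to 90235393, scored 317.32 and 151.62 and lay 64.7 kb from the bound. The regions from 86474671 to 86474753, from 87200103 to 87200180 and from 85143158 to 85143397 followed, with sample 1 scores of 298.97, 331.1 and 212.92 and sample 2 scores of 94.6, 83.08 and 109.28. Of these, the first 2 were narrow in both lists, and the sample 1 region of the last was 177 bp wide. On chromosome 9 the first, from 38758723 to 38758895, scored 238 in sample 1 and 235.12 in sample 2 and lay 1.36 Mb into the cluster. It was followed by regions from 39433526 to 39433598 (195.88 and 176.03), from 39266637 to 39266713 (205.74 and 110.14), from 40151382 to 40151456 (238.27 and 89.81) and from 39152241 to 39152314 (172.78 and 74.43). The fifth ranked 13375 among all shared regions, so the named set on chromosome 9 reaches regions of ordinary strength. Over all 47 shared regions this average ranged from 6.67 to 98.9 with a median of 47.7, against a median of 57.1 on the rest of the chromosomes.

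Regions without a partner included some of high score. In sample 2 the highest, with a score of 183.53, lay on chromosome 7 from 110249085 to 110249159, with a width of 75 bp and a distance of 307.3 kb to the nearest sample 1 region. On chromosomes 9 and 2 the highest unpartnered sample 2 regions lay from 40057673 to 40057805 (152.5) and from 85042054 to 85042117 (135.6). In sample 1 the highest scored 261.27 and lay on chromosome 7 from 115522282 to 115522355, 62.3 kb from the nearest sample 2 region. The single unpartnered sample 1 region of chromosome 2, from 85311547 to 85311700, scored 85.73. Of the 109 unpartnered sample 2 regions, 3 lay within 1 kb of a sample 1 region, and the median distance was 92.4 kb. Neighbouring sample 1 regions in the clusters themselves lay a median of 146.7 kb apart. The matching distances outside the clusters were not computed, so these values are a description only.

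Taken over all clusters together, sample 1 and shared regions were denser toward the ends. The outermost 0.5 Mb on each side held 6 sample 1 regions per Mb (18 regions) against 3.19 per Mb in the interior (37 regions), and 5.33 against 2.67 shared regions per Mb. In sample 2 these densities were 11 and 10.6 per Mb. The 0.5 Mb just beyond the bounds held 13.7 regions per Mb in sample 1, 24.3 in sample 2 and 11.3 in the shared set. The pooled shared density was thus 2.67 per Mb in the interior, 5.33 in the margin and 11.3 in the flank, over 31, 16 and 34 regions. These densities carry no interval and the margins of single clusters were not counted separately, so a rise in each cluster was not tested. The bounds of the intervals decide the membership of some strong regions. The nearest sample 1 regions inside them lay 2.01 to 105.4 kb away and the nearest outside 6.89 to 222.2 kb. At the end of the chromosome 2 cluster, the sample 1 region from 90297953 to 90298026 scored 240.96 just inside, and that from 90414737 to 90414814 scored 353.67 outside. At the start of the chromosome 7 cluster, the values were 447.49 inside and 278.07 outside, so the strong region there is among the members only by 87.2 kb. At the end of the chromosome 9 cluster, they were 238.27 inside and 273.58 outside.

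Long stretches without regions made up much of the clusters. Of 146 windows of 100 kb, 107 (73.3%) held no sample 1 region and 63 (43.2%) no sample 2 region, against 43.8% and 28.7% on the rest of the chromosomes. The median distance between neighbouring regions was 146.7 kb in sample 1 and 48.3 kb in sample 2, against 46.3 and 31.8 kb outside. The longest stretch without a sample 1 region ran over 1761 kb of chromosome 7, from 112936266 to 114697415, and 11 sample 2 regions lay within it. On that chromosome, 4 stretches without a sample 1 region were longer. The longest stretches without a region of either list measured 463.9 kb on chromosome 7, from 113402422 to 113866272, 340.7 kb on chromosome 2, from 89894564 to 90235263, and 340.5 kb on chromosome 9, from 38417507 to 38758053. Elsewhere on these chromosomes 16, 29 and 11 empty stretches exceeded these lengths.

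Shared regions in the clusters resembled those outside in how their edges met. Each of the 47 consisted of 1 region from each list. In 7 pairs (14.9%) the start or the end was identical in both lists, against 15.2% of the 3678 pairs on the rest of the chromosomes, and the median distance between starts was 14 bp against 15 bp. The width class was kept in more pairs than outside: 19 pairs were narrow in both lists (40.4% against 35.0%) and 18 wide in both (38.3% against 23.8%). Pairs narrow in sample 1 and wide in sample 2 numbered 6 (12.8% against 28.1%). Across the 47 pairs Spearman's rho of the scores was 0.396, and across the pairs outside it was 0.164. No interval was computed for either value, so whether they differ was not tested. Both values are across regions of the same pair of libraries, not across replicates, and in both lists wide regions score lower.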

How the data were processed

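Per the labels' protocols, epithelium was released by a dispase digest of 2 hours at 37 °C, fixed and sonicated, and both libraries were read in 2 lanes of 50-cycle single-end sequencing. Bowtie 0.12.7, bedtools 2.11.2 and mm9 are named in the submitters' processing notes, and the deposited region names begin with MACS. Caller version, thresholds, any control library and depth were not stated in the labels or files. The authors' deposited lists give the start, end and score of each region, called per sample.

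Lists were compared with Python 3.11.15, numpy 2.4.6, pandas 2.3.3 and scipy 1.17.1. The overlap and density code was tested on simulated data. Chromosome lengths were taken between the outermost regions of either list. Intervals are exact (Clopper-Pearson, 95%). The width limit is the emptiest 5-bp bin between narrow and wide regions. Runs of Olfr genes ended at more than 15 other coding genes. Named regions are the 5 strongest shared ones per cluster, the highest unpartnered ones, the longest empty stretches and the richest and poorest windows. Members, lists and limits were chosen with earlier results of these data known. No p-value was computed, since there is 1 group. Counts of Olfr genes with a region were planned but need an mm9 annotation, which was not used here. Coordinates count from 1. Alternatives were other overlap rules, score limits, bounds, baselines and width limits, and each list alone.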

Additional observations from a re-analysis of the deposited data

How the results depend on the processing

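Of 54 alternative values, 45 stayed within the counting interval of the value reported, and 9 left it. The density ratio stayed below 1 under all 32 alternatives run for it, from 0.252 to 0.673, and its interval did so under 31. The exception was shared regions of chromosome 9 in the upper 50% by score, with 0.439 (0.119 to 1.13) over 4 regions. These alternatives include each list taken alone, and the 0.673 is from sample 2 alone. For shared regions the highest ratio was 0.651, on chromosome 9 with bounds moved outward by 0.5 Mb. For all clusters the ratio of shared regions was 0.547 with these bounds, a change that takes in flanking sequence by construction. Leaving out each replicate in turn gave 0.356 to 0.638 for all clusters, 0.349 to 0.605 on chromosome 2, 0.392 to 0.669 on chromosome 7 and 0.318 to 0.673 on chromosome 9, the higher value each time being sample 2 alone. The share of sample 1 regions found in sample 2 was 72% in the upper 50% of both lists and 60% with sample 2 at or above the lowest sample 1 score. The latter limit gave 42.3% for the share of sample 2 regions found in sample 1, against 59.8% outside the clusters. Both limits leave fewer regions, and the lowest sample 1 score is a stricter limit in sample 2, where paired regions mostly scored lower. In the upper 50% by score, 84% of the sample 1 members and 57.4% of the sample 2 members were narrow. Outside the clusters narrow regions also scored higher than wide ones, with medians of 195.88 and 112.16 in sample 1 and 98.38 and 69.975 in sample 2. A score limit thus raises the narrow share there too. Apart from the 59.8%, shares outside under these score limits were not computed. By score, the members with a partner had median percentiles of 59.0 (51.0 to 69.9) in sample 2 and 50.3 (39.0 to 71.3) in sample 1. These stand in place of 36.1 and 45.1 for all members. Outside the clusters, regions with a partner had medians of 62.9 in sample 2 and 54.0 in sample 1, higher than those of the members but within these intervals. The average of both percentiles had a median of 47.7 over the shared members, against 57.1 on the rest of the chromosomes, without an interval. The alternative for gene starts was not run. No paired analysis was possible because there is 1 group. Depth is unknown, so a region in a single list may have been missed in the other.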
